A study of Homo sapiens with 2 samples.

Results

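The proteasome genes are the 46 genes, of 19607 in the expression table, whose symbols run from PSMA to PSMG followed by a number, with the inducible catalytic subunits PSMB8, PSMB9 and PSMB10 left out. They comprise 16 genes of the core particle, 17 of the regulatory particle, 4 activators, 1 inhibitor and 7 assembly chaperones. The remaining gene, PSMC3IP, is picked up by its symbol only, since its product is a recombination factor named for binding a proteasome subunit. RNA was sequenced from CWR22rv1, an androgen receptor-positive human prostate cancer line, as 1 library of cells with both Akt1 and Akt2 knocked out (Akt1/2 DKO) and 1 library labelled wild type (control). The Akt1/2 DKO cells had received CRISPR/Cas9 plasmids against Akt1 and Akt2 together with a plasmid for puromycin resistance, and were isolated as single-cell clones. The sources used here do not say which clone was sequenced, or whether the control cells went through the same selection. Clone and genotype therefore cannot be told apart.

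The proteasome is the protease complex that degrades ubiquitin-tagged proteins in the cytosol and nucleus. Its barrel-shaped core is built from outer rings of alpha subunits, which gate the entry pore, and inner rings of beta subunits, which hold the proteolytic sites. The regulatory particle caps the barrel. Its base contains the ring of ATPases that unfolds substrates, and its lid removes the ubiquitin chain. Alternative activators open the gate without ATP, and dedicated chaperones assemble both particles. Akt is a kinase that promotes growth and protein synthesis and restrains the FOXO transcription factors, which in muscle are known to raise protein breakdown.

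The control library held 9970820 estimated reads and the Akt1/2 DKO library 10718650. Reads were scaled by the TMM method, a log2 fold change is Akt1/2 DKO relative to control, and brackets give the 95% exact interval for counting error. With 1 library per genotype no difference has a replicate check and no p-value is given. The targeted genes were lower in the library labelled Akt1/2 DKO, with a log2 fold change of -2.31 for AKT1 and -1.97 for AKT2. All 8 markers of prostate luminal epithelium had reads in both libraries, from 29 to 12815 a gene, with 3 at least 1.5-fold higher in Akt1/2 DKO and 3 lower, among them KLK3 (-2.81) and HOXB13 (-1.60). The 5 fibroblast markers held 138 and 153 reads in control and Akt1/2 DKO, with COL3A1 lower (74 and 9) and COL1A1 (55 and 106) and LUM (5 and 35) higher, the 4 leukocyte markers 52 and 70, and the 3 endothelial markers 1 and 2. Of the defining markers CD3E and CDH5 were at 0 in both libraries. The part of these cell markers in the results was not tested. Genes on chromosome 3 were lower in Akt1/2 DKO, with a median of -0.54 over 754 genes, and 2 proteasome genes lie there.

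Transcripts of the proteasome were nearly level between the libraries. A total of 10 reads over both libraries was asked of a gene, which 44 of the 46 reached, each with between 531 and 10152. None of the 44 differed by 1.5-fold or more (0 of 44), whereas 30.9% of all 13318 genes with at least 10 reads did. Counting error is larger for genes with few reads, so the proteasome genes are better set beside the 7510 genes with at least 500 reads, of which 17.0% differed by 1.5-fold. The median log2 fold change was 0.079 over the proteasome genes and -0.015 over the 7510 genes. The interquartile range was 0.25 for the proteasome genes and 0.47 for the 7510 genes. In a bulk library a gene's value is its share of the RNA, so fewer cells that transcribe a gene and less of its RNA per cell cannot be told apart. Together the 44 genes took 0.639% of the reads in control and 0.667% in Akt1/2 DKO.

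At the lower limit of 1.2-fold, 4 genes were higher and 2 lower in Akt1/2 DKO, 6 of 44 in all, against 45.2% of the 7510 genes. In the higher direction 20.4% of the 7510 genes passed that limit, and 24.8% did so in the lower direction. The split depends on the scaling, with 8 higher and 1 lower by total counts, 9 and 1 by upper quartile and 7 and 1 by FPKM. The 4 higher genes were PSME1, PSMD5, PSMB4 and PSMG1, which are an activator, a chaperone of the base, a beta subunit and a chaperone of the core. The 2 lower genes were PSMD2 and PSMD6, both on chromosome 3. For 23 of the 44 genes the counting interval did not include 0, 16 of them higher and 7 lower. Such an interval was found for 65.6% of the 7510 genes, as the counting interval narrows with depth. Another scaling shifts each value and its interval together, so the split of 16 and 7, counted under TMM only, depends on it.

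**Figure D1:**
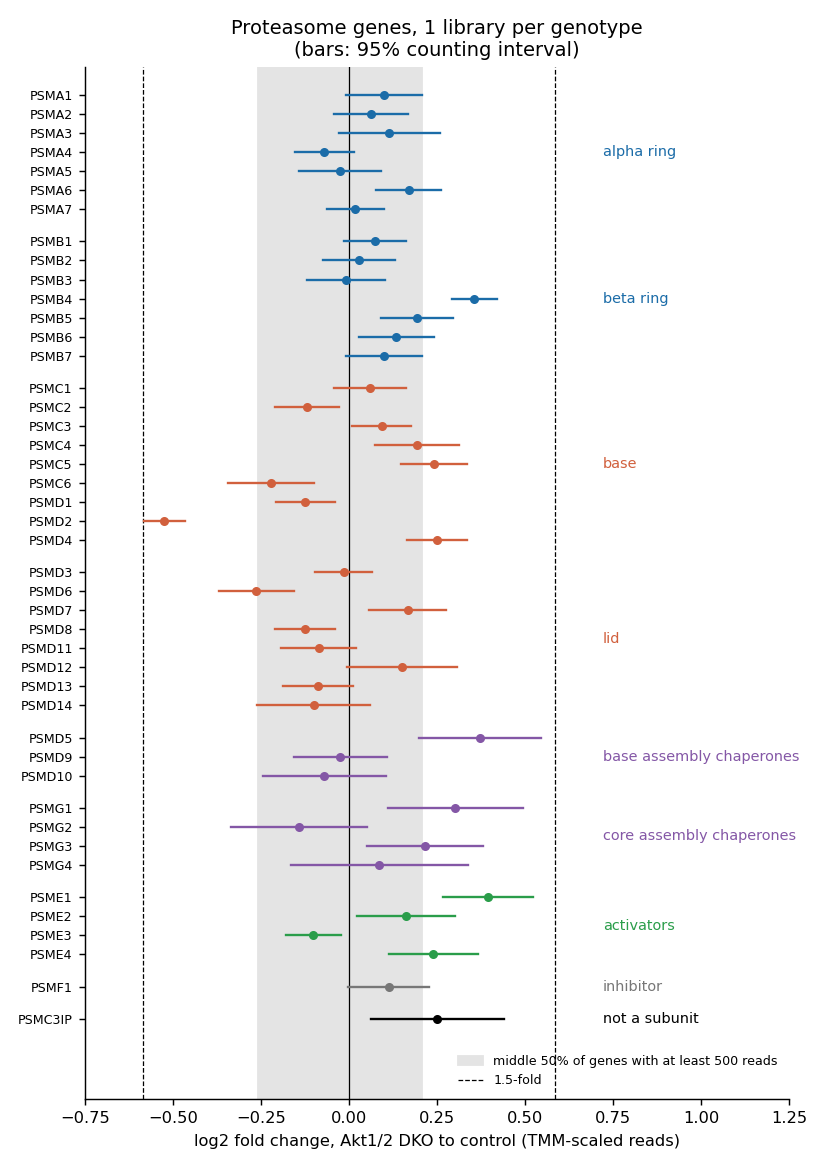
Log2 fold change of each of the 44 proteasome genes with reads (x axis, Akt1/2 DKO to control, TMM-scaled reads; bars, 95% counting interval), grouped by role on the y axis. The grey band holds the middle 50% of the 7510 genes with at least 500 reads, the dashed lines mark 1.5-fold, and every point lies between those lines, from -0.52 (PSMD2) to 0.39 (PSME1).

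**Figure D2:**
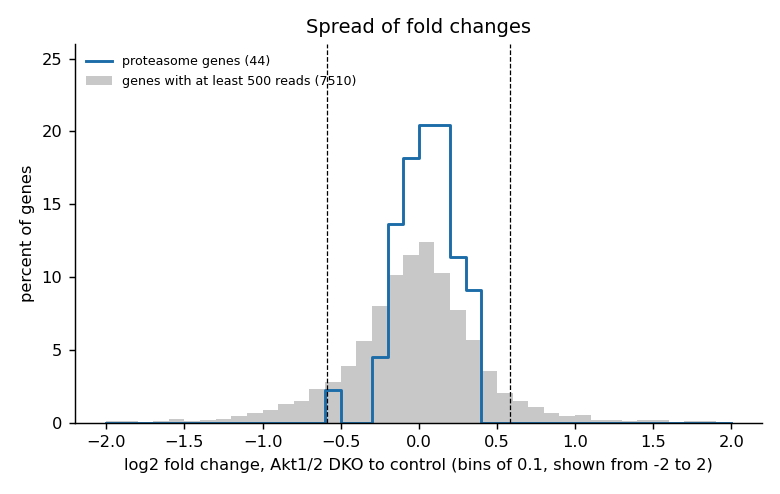
Distribution of log2 fold changes in bins of 0.1 (x axis) as percent of genes (y axis), for the 44 proteasome genes (line) and the 7510 genes with at least 500 reads (bars), with 1.5-fold marked by dashed lines. The proteasome genes form a narrower peak, with an interquartile range of 0.25 against 0.47.

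The alpha ring was the most even part of the complex. Its 7 transcribed subunits lay between -0.070 and 0.17, with a median of 0.061. PSMA4 had the lowest value, with 2258 reads in control and 2384 in Akt1/2 DKO (-0.070, interval -0.15 to 0.013). PSMA6 had the highest, with 1694 and 2111 reads (0.17, interval 0.076 to 0.26), and was the only alpha subunit whose interval left out 0. Among the 7510 genes with at least 500 reads, 65.6% had such an interval. The signs of PSMA5 (1156 and 1259 reads) and PSMA7 (2348 and 2633 reads) changed with the way the libraries were scaled. The eighth alpha gene, PSMA8, is an alternative to PSMA7 known from the testis and had 0 reads in both libraries. At these depths a count of 0 allows up to 0.301 CPM (reads scaled to a fixed library total) in control and 0.28 in Akt1/2 DKO.

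In the beta ring 6 of 7 transcribed subunits were higher in Akt1/2 DKO, 3 of them with an interval that left out 0, and the median was 0.099. Of the 7510 genes with at least 500 reads 3638 were higher, 2317 of them with an interval that left out 0. The 3 catalytic subunits all had values above 0. PSMB5, the chymotrypsin-like subunit that bortezomib inhibits, had 1385 reads in control and 1755 in Akt1/2 DKO (0.19, interval 0.090 to 0.30). PSMB6, the caspase-like subunit, had 1296 and 1576 reads (0.13, interval 0.026 to 0.24). PSMB7, the trypsin-like subunit, had 1299 and 1542 reads (0.099, interval -0.0089 to 0.21). The 3 intervals overlap. The ratio of PSMB5 to PSMB6 reads does not depend on library scaling, and it was 1.07 in control and 1.11 in Akt1/2 DKO. Its log2 change was 0.059, with an interval of -0.087 to 0.21. The ratio of PSMB5 to PSMB7 was 1.07 and 1.14, a log2 change of 0.094 (interval -0.053 to 0.24), so at this depth neither ratio differed beyond counting error.

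PSMB4 stood apart in the core. This subunit without a proteolytic site had 3254 reads in control and 4616 in Akt1/2 DKO, a log2 fold change of 0.36 (interval 0.29 to 0.42), the highest of the 14 transcribed core subunits. The lowest beta subunit was PSMB3, with 1274 and 1403 reads (-0.0097, interval -0.12 to 0.10), and its sign turned with the scaling. The PSMB4 to PSMB3 ratio was 2.55 in control and 3.29 in Akt1/2 DKO, a log2 change of 0.37 (interval 0.24 to 0.49). PSMB4 (ENSG00000159377) lies on chromosome 1 from 151399534 to 151401944 on the human build GRCh38. The nearest expressed genes there had a median log2 fold change of 0.20, and part of this neighbourhood is PSMD4, another proteasome gene. PSMB11, the thymus-specific beta subunit, had 1 read in control and 0 in Akt1/2 DKO, too few for a fold.

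The base of the regulatory particle was the least even part. Of its 9 genes 5 were higher and 4 lower in Akt1/2 DKO, with a median of 0.058, and for 8 of the 9 the interval left out 0. Of the 7510 genes with at least 500 reads 3638 were higher and 3872 lower, and 65.6% had such an interval. The ATPases lay on both sides of 0 although they form 1 ring. PSMC5 had 1611 reads in control and 2109 in Akt1/2 DKO (0.24, interval 0.15 to 0.33), and PSMC4 had 1021 and 1293 (0.19, interval 0.072 to 0.31). PSMC6 was the lowest ATPase, with 1142 and 1085 reads (-0.22, interval -0.34 to -0.10). PSMC2 had 1932 and 1971 reads (-0.12, interval -0.21 to -0.029). The intervals of PSMC5 and PSMC6 do not overlap. PSMC1 had 1430 and 1651 reads (0.058, interval -0.045 to 0.16) and its reads are less certain, because GENCODE release 29 lists 13 pseudogenes named for it.

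PSMD2, a large scaffold of the base that docks shuttle factors carrying ubiquitinated proteins, had the largest difference of any proteasome gene. It had 5734 reads in control and 4418 in Akt1/2 DKO, 1.44-fold lower, a log2 fold change of -0.52 (interval -0.58 to -0.47). Its partner scaffold PSMD1 had 2311 and 2350 reads (-0.12, interval -0.21 to -0.041). The ratio of PSMD2 to PSMD1 reads was 2.48 in control and 1.88 in Akt1/2 DKO, a log2 change of -0.40 (interval -0.50 to -0.30). PSMD2 (ENSG00000175166) lies on chromosome 3 from 184298709 to 184309054 (GRCh38), and its nearest expressed genes had a median of -0.46. The value for PSMD2 was thus close to that of its neighbours and to the chromosome's median of -0.54. PSMD4, a ubiquitin receptor, was the highest gene of the base, with 1992 and 2623 reads (0.25, interval 0.16 to 0.33). Its neighbours on chromosome 1 had a median of 0.24.

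In the lid 6 of 8 genes were lower in Akt1/2 DKO, 2 of them with an interval that left out 0, and the median was -0.089. Of the 7510 genes with at least 500 reads 3872 were lower, 2608 of them with an interval that left out 0. PSMD6 (ENSG00000163636), a structural subunit, had 1472 reads in control and 1359 in Akt1/2 DKO (-0.26, interval -0.37 to -0.16). It lies on chromosome 3 from 64010549 to 64024010, and its nearest expressed genes had a median of -0.59, well below its own value. Under the other scalings and FPKM its value ran from -0.29 to -0.21, so that its place beyond 1.2-fold depends on the scaling. PSMD14, the deubiquitinase of the lid, had 629 and 650 reads (-0.10, interval -0.26 to 0.059). The highest lid gene was PSMD7, the catalytically inactive partner of PSMD14, with 1233 and 1533 reads (0.17, interval 0.056 to 0.27). The remaining genes of the lid lay between -0.13 and 0.15.

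Core and regulatory particle moved slightly apart. The 14 core subunits had a median of 0.086 and the 17 regulatory subunits one of -0.087, a difference of -0.17 that library scaling cannot alter. The groups overlap widely, since the core ran from -0.070 to 0.36 and the regulatory particle from -0.52 to 0.25. With all reads summed, the core had 22764 reads in control and 27195 in Akt1/2 DKO (0.11, interval 0.082 to 0.13). PSMB4, the highest core subunit, held 3254 and 4616 of these reads, and no core sum was taken without it. The regulatory particle had 30799 and 32251 (-0.082, interval -0.10 to -0.060). Without PSMD2 and PSMD6, the genes on chromosome 3, its sum was 23593 and 26474 reads (0.017, interval -0.0080 to 0.043) and its median -0.016. The difference between the medians was then -0.10. Whether the interval of this smaller sum includes 0 depends on the scaling. With base and lid taken separately the medians had opposite signs (0.058 and -0.089), so the lower median does not describe the whole particle.

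The activators had a median of 0.20, the highest of the complexes compared, over 4 genes. PSME1 and PSME2 encode the subunits that alternate in the ring of the cytosolic activator PA28, which interferon induces. PSME1 had 846 reads in control and 1233 in Akt1/2 DKO, 1.31-fold higher (0.39, interval 0.27 to 0.52), the largest positive value among the 44 genes. PSME2 had 772 and 957 reads (0.16, interval 0.023 to 0.30). The ratio of PSME1 to PSME2 reads was 1.10 in control and 1.29 in Akt1/2 DKO, a log2 change of 0.23 (interval 0.047 to 0.42). PSME3, which forms the nuclear activator by itself, was the exception, with 2592 and 2677 reads (-0.10, interval -0.18 to -0.024). PSME4, a single-chain activator known from the testis and from DNA repair, had 885 and 1158 reads (0.24, interval 0.11 to 0.37). PSMF1, which encodes the inhibitor PI31, had 1140 and 1366 reads (0.11, interval -0.0024 to 0.23). PSME1 lies on chromosome 14 from 24136158 to 24138967 and PSME2 on the same chromosome from 24143362 to 24147570, so each counts among the other's neighbours. The neighbourhood medians were 0.22 and 0.19.

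The chaperones differed among themselves. PSMD5, which holds ATPases during assembly of the base, had 466 reads in control and 668 in Akt1/2 DKO, 1.29-fold higher (0.37, interval 0.20 to 0.54), while its neighbours had a median of -0.050. The other two base chaperones were PSMD9, with 901 and 981 reads (-0.026, interval -0.16 to 0.11), and PSMD10, also called gankyrin, with 526 and 555 (-0.071, interval -0.25 to 0.10). Among the chaperones of the core, PSMG1 had 389 and 531 reads (0.30, interval 0.11 to 0.49) and PSMG3 had 534 and 687 (0.21, interval 0.049 to 0.38). PSMG2, the obligate partner of PSMG1, had 443 and 445 reads (-0.14, interval -0.34 to 0.051). PSMG4, the partner of PSMG3, had 244 and 287 (0.085, interval -0.17 to 0.34). The intervals of PSMG1 and PSMG2 do not overlap, while those of PSMG3 and PSMG4 do. PSMC3IP, which is no subunit, had 402 and 530 reads (0.25, interval 0.060 to 0.44).

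Levels of different genes were compared in FPKM, the authors' value per transcript length. The order of the proteasome genes was nearly the same in both libraries, with a Spearman correlation of 0.976 across the 44 genes, which are not independent replicates. The genes of the core differed more from each other than any differed between libraries. They ran from 52.4 FPKM (PSMB2) to 336 (PSMB4) in control, a 6.42-fold range, and from 54.8 to 444 for the same genes in Akt1/2 DKO, an 8.10-fold range. The median level was 142 FPKM for the core and 94.2 for the regulatory particle in control, and 158 and 88.6 in Akt1/2 DKO. PSMB4 ranked highest of the 46 genes in both libraries. PSMD2 went from rank 6 in control (187 FPKM) to rank 14 in Akt1/2 DKO (137 FPKM), and PSME1 from rank 25 (83.6 FPKM) to rank 17 (114 FPKM). PSME4, at 12.4 and 15.1 FPKM, was the lowest of the 44 transcribed genes in both. The ratio of PSME4 to PSME3 was 0.0906 in control and 0.114 in Akt1/2 DKO by FPKM.

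**Figure D3:**
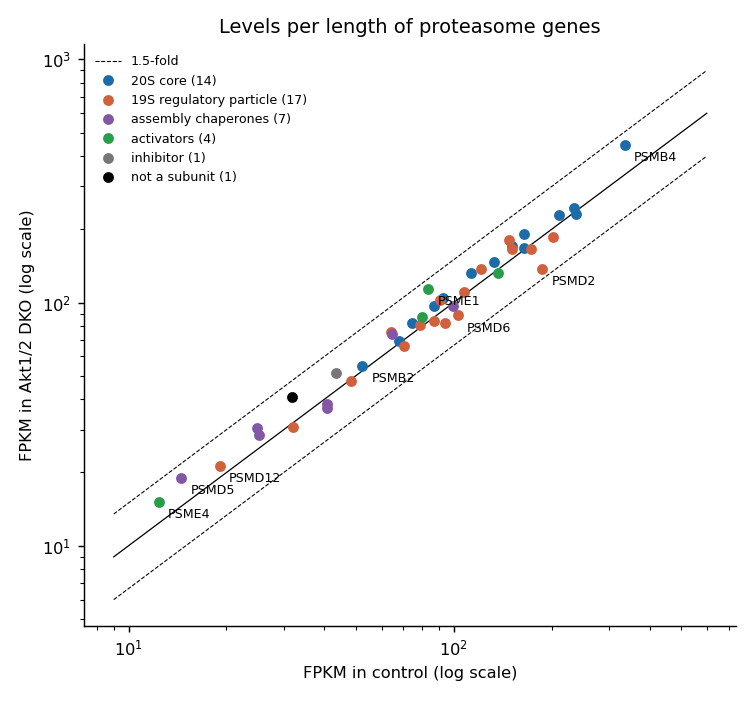
FPKM of the 44 proteasome genes in control (x axis, log scale) and in Akt1/2 DKO (y axis, log scale), coloured by complex, with equality as a solid line and 1.5-fold as dashed lines. All points lie between the dashed lines, PSMD2 nearest to the lower one at 187 and 137 FPKM.

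The 44 genes lie on 17 chromosomes. Across them the log2 fold change and the median of the nearest expressed genes, 10 on each side, had a Pearson correlation of 0.386 and a Spearman correlation of 0.178, given as a description. The points share both libraries. Several genes differed from their surroundings. PSMC6 was at -0.22 where its neighbours on chromosome 14 had a median of 0.23, and PSMG1 was at 0.30 where its neighbours on chromosome 21 had one of -0.076. Chromosome 1 carries 4 proteasome genes with a median of 0.14, and its 1326 expressed genes had one of 0.10. On chromosome 14, which carries 7, the medians were 0.16 and 0.058.

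**Figure D4:**
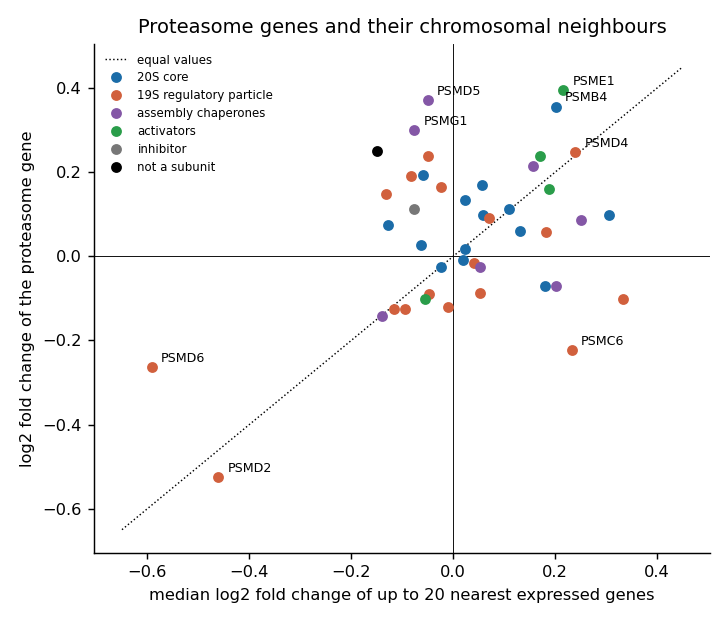
Log2 fold change of each proteasome gene (y axis) against the median of up to 20 nearest expressed genes (x axis), coloured by complex, with equal values as a dotted line. PSMD2 and PSMD6 are the only genes with strongly negative neighbours, at -0.46 and -0.59.

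Promoter windows reaching from 250 bases before to 50 after the start were available from RefSeq (GRCh38.p14) for 38 of the 44 genes, as 47 windows. The antioxidant response element core TGACNNNGC, bound by NFE2L1 and NFE2L2 with small MAF proteins, was found on either strand in 29.8% of the 47 windows and in 13.3% of all 35116 windows. The NF-Y box CCAAT was found in 42.6% and 34.6%, and the FOXO motif GTAAACA in 4.26% and 3.42%. The 14 genes with the antioxidant response element core had a median log2 fold change of 0.15, from -0.14 to 0.39, with 8 higher and 6 lower. The 24 genes without it had a median of 0.043, from -0.52 to 0.36. The 19 genes with the NF-Y box had a median of -0.0097, with 9 higher and 10 lower, and the 19 without it one of 0.099. For both motifs the ranges of genes with and without it overlap over most of their length. The FOXO motif was found in PSMB2 (0.027) and PSMD5 (0.37). A match describes letters in the window and not a bound site.

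Parts of the windows that hold no annotated exon are shown for the highest activator, the highest chaperone, the highest core subunit and PSMB3, a core subunit near 0, to let the motifs be seen beside the values. Capitals mark the antioxidant response element core, the NF-Y box or the FOXO motif, and each sequence reads 5′ to 3′ on the strand of the gene. PSME1 is chr14:24135944-24136157 on the plus strand (0.39), PSMD5 chr9:120842985-120843172 on the minus strand (0.37), PSMB3 chr17:38752491-38752735 on the plus strand (-0.0097) and PSMB4 chr1:151399323-151399533 on the plus strand (0.36).
PSME1: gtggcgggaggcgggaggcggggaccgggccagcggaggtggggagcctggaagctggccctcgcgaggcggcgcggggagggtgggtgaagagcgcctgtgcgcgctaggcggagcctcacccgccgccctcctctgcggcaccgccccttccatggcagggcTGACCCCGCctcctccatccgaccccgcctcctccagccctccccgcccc
PSMD5: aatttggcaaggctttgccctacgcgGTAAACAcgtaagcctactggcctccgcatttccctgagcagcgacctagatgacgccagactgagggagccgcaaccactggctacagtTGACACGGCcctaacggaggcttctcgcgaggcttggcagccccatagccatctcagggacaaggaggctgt
PSMB3: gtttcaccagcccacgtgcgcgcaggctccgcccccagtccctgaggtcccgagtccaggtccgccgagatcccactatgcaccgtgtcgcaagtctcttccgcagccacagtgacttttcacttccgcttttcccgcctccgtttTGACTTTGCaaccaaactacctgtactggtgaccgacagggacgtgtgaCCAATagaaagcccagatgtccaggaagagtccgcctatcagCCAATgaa
PSMB4: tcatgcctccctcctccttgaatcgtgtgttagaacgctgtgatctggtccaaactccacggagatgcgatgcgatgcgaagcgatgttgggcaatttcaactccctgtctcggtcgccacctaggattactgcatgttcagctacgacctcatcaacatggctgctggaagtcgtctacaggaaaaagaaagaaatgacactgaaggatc
PSME1 holds 1 antioxidant response element core here, and PSMD5 holds 1 together with 1 FOXO motif. PSMB3 holds 1 antioxidant response element core and 2 NF-Y boxes. PSMB4 holds none of the 3 motifs in this stretch.

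The wider ubiquitin-proteasome pathway was followed in a list of 39 genes, of which 8 were at least 1.5-fold higher in Akt1/2 DKO, 1 was at least 1.5-fold lower and 30 were within 1.5-fold. The 8 include PSMB8 and PSMB9, inducible subunits that reached 10 reads only through the Akt1/2 DKO library, where they are high. Without them 6 of 37 genes were higher and 1 lower, with a median of 0.10. Among all genes 30.9% passed 1.5-fold in either direction, and among those with at least 500 reads, as most of the 37 had, 17.0% did. Among 12 cofactors of the proteasome, UCHL5 alone passed, a deubiquitinase of the regulatory particle with 552 reads in control and 1039 in Akt1/2 DKO (0.76, interval 0.61 to 0.92), whose neighbours on chromosome 1 had a median of 0.65. USP14, the other deubiquitinase bound to the particle, had 1751 and 1570 reads (-0.31, interval -0.41 to -0.21), and its neighbours on chromosome 18 a median of -0.28. ADRM1, the ubiquitin receptor that recruits UCHL5, had 1474 and 1748 reads (0.097, interval -0.0037 to 0.20). POMP, the chaperone that completes the core, had 685 and 880 (0.21, interval 0.067 to 0.36). The small lid subunit SEM1, whose symbol keeps it out of the 46, had 606 and 644 reads (-0.061, interval -0.22 to 0.10).

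In a list of 10 genes for the transcriptional control of proteasome subunits, 3 were at least 1.5-fold higher and 1 was lower. Of all genes 30.9% passed in either direction, and 17.0% of those with at least 500 reads did. FBXO7 (-0.24, interval -0.37 to -0.11), also in this list, does not itself act on transcription. NFE2L1, the transcription factor that raises subunit genes when the proteasome is impaired, had 2245 reads in control and 2630 in Akt1/2 DKO (0.080, interval -0.0023 to 0.16). By FPKM NFE2L1 had 62.1 and 74.0, a difference larger than that interval allows. Its relative NFE2L2 had 515 and 550 (-0.054, interval -0.23 to 0.12). NFE2L3 had 46 and 126 reads, 2.47-fold higher (interval 0.81 to 1.82 on the log2 scale). Its neighbours on chromosome 7 had a median log2 fold change of 0.51. The small MAF partners of these factors had values above 0. MAFF had 48 and 173 reads (1.70, interval 1.23 to 2.19), MAFK 451 and 936 (0.90, interval 0.74 to 1.07) and MAFG 668 and 938 (0.34, interval 0.20 to 0.49), the last within 1.5-fold. NGLY1, the deglycosylase that activates NFE2L1, was lower, with 595 and 252 reads (-1.39, interval -1.61 to -1.17). NGLY1 lies on chromosome 3 and was below that chromosome's median of -0.54 and the -0.35 of its neighbours. DDI2, the protease that cleaves NFE2L1, had 1564 and 1794 reads (0.049, interval -0.050 to 0.15).

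**Figure D5:**
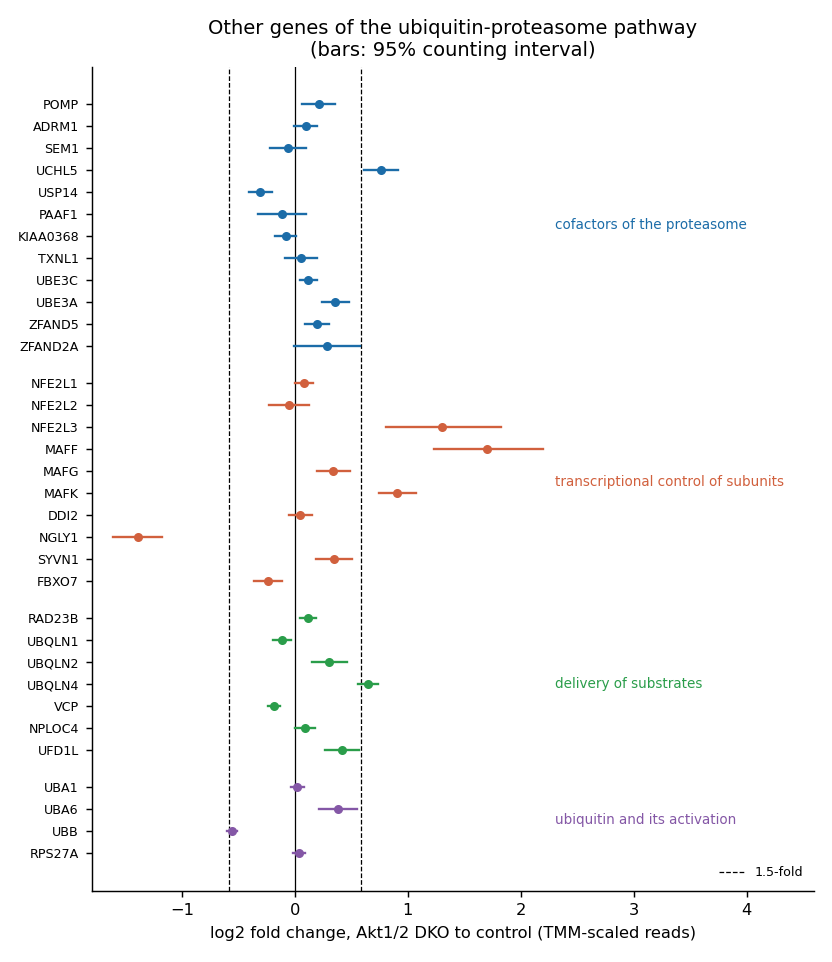
Log2 fold change of other genes of the pathway (x axis, Akt1/2 DKO to control, TMM-scaled reads; bars, 95% counting interval), grouped by role on the y axis, with 1.5-fold as dashed lines. NFE2L3, MAFF, MAFK, UCHL5 and UBQLN4 lie to the right of the lines and NGLY1 to the left at -1.39.

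The inducible catalytic subunits, which replace PSMB5, PSMB6 and PSMB7 in the immunoproteasome, had few reads. PSMB8 had 1 read in control and 19 in Akt1/2 DKO, a ratio of 17.1 with an interval of 1.45 to 9.48 on the log2 scale. PSMB9 had 2 and 12 reads, a ratio of 5.41 with an interval of 0.27 to 5.64 on that scale. PSMB10 had 82 and 146 reads (0.68, interval 0.28 to 1.09). By FPKM, PSMB10 reached 13.0 FPKM in Akt1/2 DKO against 147 for PSMB7, and PSMB8 reached 1.38 against 133 for PSMB5.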

How the data were processed

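RNA from 1 library of Akt1/2 DKO and 1 of control CWR22rv1 cells was sequenced. For each gene the deposited table gives the authors' estimated count, without normalization, and their FPKM. The labels name fastp 0.20.0, TopHat, Cufflinks, edgeR and the build GRCh38.p10, without their roles. The counting rule for shared reads and the strand setting are not given in the sources used here. The tables of the authors' own comparison (fold changes, p-values, ontology counts and a correlation) were not used.

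Estimated counts were rounded to whole reads and scaled by TMM factors (edgeR 4.0.16, R 4.3.3) over genes with a total of 10 reads or more, which put the library ratio, Akt1/2 DKO to control, at 1.11. Intervals are 95% exact (Clopper-Pearson) given the reads of both libraries, and those of ratios between genes use the normal approximation on the log scale. They cover counting error only, and nothing here measures variation between cultures. Genes named were any past 1.5-fold, the catalytic subunits, the activators, PSMF1, members without enough reads, and the highest and lowest of each class. The 1.2-fold members and all others named were chosen after their values were seen. The members and lists were chosen with earlier results of these data known, and the limit of 500 reads after the members' depths were seen. Positions are from GENCODE release 29 (GRCh38), which held 19571 of 19607 identifiers. Of the 44 genes 18 share exon sequence with a gene on the opposite strand, 12 have a pseudogene named for them, and 5 (PSMC1, PSMC3IP, PSME3, PSMG2 and PSMG4) have estimates that are not whole, so part of their reads may be assigned uncertainly. The 18 include PSME1, PSMC5 and PSMD6, and the 12 include PSMA6 and PSMD4. The alternatives were other scalings (total counts, DESeq2 1.42.0, upper quartile, TMM without chromosome 3), FPKM with a pseudocount of 0.1, other read filters, a prior count of 1 read, other fold limits and other sets of members. The fold changes and counting intervals were tested on simulated reads with a known library ratio. Scaling, neighbours and motifs were not part of that test. A few genes of the pathway list are counted in its totals but not reported here by name.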

Additional observations from a re-analysis of the deposited data

How the results depend on the processing

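The count of proteasome genes past 1.5-fold was 0 under every scaling, with FPKM, at a 2-fold limit, and with each stricter read filter. It was 1 with every gene of at least 1 read admitted, because PSMB11 had 1 read in 1 library. It was 6 at 1.2-fold (9 by total counts, 10 by upper quartile and 8 by FPKM, chosen after seeing the data). With a counting interval without 0 as the criterion it was 23, counted under TMM only. Over all genes these criteria gave 7662 and 7880 genes in place of 4117. A 2-fold limit left 2390 of all genes, and at least 500 reads left 1273, as fewer genes were compared and a smaller share of them passed (17.0% against 30.9%). The medians of the members, the core and the activators stayed above 0 under each alternative run, from 0.057 to 0.13, 0.064 to 0.15 and 0.18 to 0.25. The median of the regulatory particle stayed below 0, from -0.11 to -0.016, except that the base alone gave 0.058. Of 44 genes 39 kept their sign under 5 scalings and units, and PSMA5, PSMA7, PSMB3, PSMD3 and PSMD9 did not. Of the 220 values of genes under these 5 alternatives, 3 fell outside the counting interval. All were by FPKM, for PSMA2 (0.17), PSMD2 (-0.45) and PSMF1 (0.24). Total counts moved the median of all genes to 0.051, and that of the proteasome genes to 0.12. No paired analysis was possible because there was a single library of each genotype.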

Other observations

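Of 6 genes for ubiquitin and its activation, 0 passed 1.5-fold, and of 8 for the delivery of substrates 1 did, against 17.0% of all genes with at least 500 reads. UBB, a polyubiquitin gene, had 8689 reads in control and 6557 in Akt1/2 DKO, 1.47-fold lower (-0.55, interval -0.60 to -0.51). RPS27A, which encodes ubiquitin fused to a ribosomal protein, was at 0.038 (interval -0.013 to 0.089). UBA1, the main activating enzyme, was at 0.020 and UBA6, the alternative one, at 0.38 (interval 0.21 to 0.55). By FPKM both UBB (909 in control and 602 in Akt1/2 DKO) and UBA6 (8.14 and 13.2) passed 1.5-fold. The count of 0 is therefore for TMM-scaled reads.

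The 1 gene for the delivery of substrates past 1.5-fold was UBQLN4, with 1679 reads in control and 2921 in Akt1/2 DKO (0.65, interval 0.56 to 0.74). UBQLN4 is a shuttle factor, and its relatives UBQLN1 and UBQLN2 were at -0.11 and 0.31. The shuttle factor RAD23B was at 0.12. VCP, the segregase that extracts proteins for degradation, had 5741 and 5587 reads (-0.19, interval -0.24 to -0.13), while its cofactors NPLOC4 and UFD1L were at 0.088 and 0.42.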
